A study of Mus musculus with 21 samples.

Results

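The 84 genes described here encode the proteins of the cytosolic ribosome of the mouse, 50 of the large subunit and 34 of the small subunit, among 28987 gene identifiers measured. They were chosen by symbol alone, as genes named Rpl or Rps with a number plus Rplp0, Rplp1, Rplp2 and Rpsa, and without processed copies (names ending in -ps), Rps3a2, Rps3a3 and the Rps6 kinases. RNA came from 21 libraries of bone marrow cells, 6 of multipotent progenitors (MPP, sorted as MPP3 and MPP4) and 15 of LT-HSC, the long-term stem cells at the top of the blood lineage. Each library was made from 5 ng of RNA of cells sorted from the lineage-depleted marrow of pooled mice. Batch 1 held RXR knockouts (VaviCre+Rxrabfl/fl) and floxed mice without Cre (Rxrabfl/fl), each as MPP and as LT-HSC, with 3 libraries a group. Batch 2 held LT-HSC only, of mice with Vav1Cre+Rxrabfl/fl Myclfl/+, of mice with Vav1Cre+Rxrabfl/fl and of Vav1Cre+WT mice, again with 3 libraries a group. The third allele is written Mycl in the titles and Myc in the descriptions, and is called the Myc allele below. Vav1-Cre recombines floxed genes throughout the blood lineage, so neither the stem cells nor their offspring are targeted alone. The knockouts of batch 1 were set against floxed mice without Cre and those of batch 2 against Cre mice without floxed genes, so the kind of control changed with the batch.

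A ribosome joins a small subunit, which reads the mRNA, to a large subunit, which forms the peptide bonds. Each subunit needs most of its proteins in equal numbers. The mRNAs of these proteins begin with a run of pyrimidines (a 5′ TOP motif) through which mTOR signalling controls their translation, and Myc drives their transcription together with that of ribosome assembly factors. Blood stem cells make protein slowly, and in humans the loss of 1 copy of certain ribosomal protein genes causes Diamond-Blackfan anaemia. RXR proteins are ligand-dependent transcription factors, and many other nuclear receptors bind DNA only as partners of an RXR.

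Promoter sequences are shown for the genes whose levels or splicing the results below turn on. They show where pyrimidine tracts and the ETS core lie near an annotated start, if present. Each runs 5′ to 3′ on the strand of the gene from 40 bases before an annotated start to 20 bases from it on, in 60 bases of RefSeq's GRCm38.p6. Capitals mark runs of at least 8 pyrimidines and TTCCGG or CCGGAA, the ETS core on either strand.
Rps21, chr2:180257409-180257468, plus strand: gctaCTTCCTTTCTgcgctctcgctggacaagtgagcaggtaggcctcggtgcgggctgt
Rplp0, chr5:115559427-115559486, plus strand: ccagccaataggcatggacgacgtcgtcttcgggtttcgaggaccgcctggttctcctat
Rpl38, chr11:114668540-114668599, plus strand: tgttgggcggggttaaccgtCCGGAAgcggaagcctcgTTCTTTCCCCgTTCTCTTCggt
Rpl23, chr11:97782420-97782479, minus strand: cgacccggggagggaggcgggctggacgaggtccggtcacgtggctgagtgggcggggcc
Rps6, chr4:86857348-86857407, minus strand: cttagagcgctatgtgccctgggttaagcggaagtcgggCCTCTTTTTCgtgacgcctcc
Rpl10a, chr17:28328525-28328584, plus strand: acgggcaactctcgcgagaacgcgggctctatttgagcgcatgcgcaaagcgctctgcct
Rps24, chr14:24490713-24490772, plus strand: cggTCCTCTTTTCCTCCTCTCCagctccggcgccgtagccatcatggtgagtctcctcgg
Rpl22l1, chr3:28805468-28805527, plus strand: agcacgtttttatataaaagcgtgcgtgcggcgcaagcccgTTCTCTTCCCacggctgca
Of the 84 genes, 61 had a promoter in the table, and 36 of these (59%) held a run of at least 8 pyrimidines on the gene's strand in such a window, against 27.2% of 27025 genes. TTCCGG on either strand of the 300 bases around the start was found in 34 of the 61 (55.7%), against 16.7% of all genes. CTTTCC, in the 60-base window on the gene's strand, was found in 12 (19.7%), against 3.39%. TATAAA in that window was found in 2 (3.28%, against 3.19%) and CACGTG, the E-box bound by Myc, on either strand of the 300 bases in 6 (9.84%, against 8.09%). The capitals in the Rps21, Rpl38, Rps6, Rps24 and Rpl22l1 windows include a run of at least 8 pyrimidines. In Rps21 and Rps24 that run ends before the annotated start. The Rplp0, Rpl23 and Rpl10a windows shown hold no run of 8. Among the windows shown only that of Rpl38 holds the ETS core.

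Levels are deposited TPM, which are scaled for gene length and so can be compared between genes. Rps29, a small zinc-binding protein of the small subunit, averaged 6201 TPM over all libraries, Rps28 4977 TPM and Rpl32 4578 TPM. Of the 84 genes, 74 averaged at least 100 TPM and 58 at least 1000 TPM. Only 8 averaged below 20 TPM, and all but Rps12 and Rps27 among them bear the names of paralogs of core proteins. Rpl7l1 and Rps4l averaged 13.4 and 6.49 TPM, and Rpl39l, Rpl6l, Rpl3l and Rpl10l averaged 0.584, 0.276, 0.249 and 0.00512 TPM. Rps12 and Rps27 were listed at 0 in every library, although Rps12 had spliced reads in all 21 libraries, with a PSI of 0.8 to 0.975 (the fraction of reads on a junction against its competitors) at chromosome 10, 23786004 to 23786764, of mm10. The near copy Rps27rt had 4723 to 10170 TPM. Of the 8 listed paralogs of core proteins, 7 are among the 84 genes, and the highest was Rpl22l1 at 888.1 TPM, beside 2229 TPM for Rpl22, the RNA-binding large subunit protein it can replace. The 22 genes of Diamond-Blackfan anaemia in humans spanned 68.4 TPM for Rpl5 to 6201 TPM for Rps29 among the 21 above 0. Rps14, the gene of the 5q- anaemia in humans, averaged 1050 TPM. Rpl5 and Rpl11 bind 5S rRNA and, when free, the p53 inhibitor Mdm2, and Rpl11 averaged 1640 TPM. The stalk proteins ran from 796 TPM for Rplp0 to 4383 TPM for Rplp2.

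These genes have many nearly identical copies in the genome, and reads shared with them make single levels uncertain. The table held 196 processed copies by symbol, of 58 of the 84 genes, and they took 9.24% to 12.3% of the summed TPM of genes and copies in a library. In 7 genes the copies exceeded the gene. Rpl31 averaged 257 TPM beside 5933 TPM for Rpl31-ps8, Rpl15 159.5 TPM beside 2024 TPM for Rpl15-ps3, and Rpl27 153.5 TPM beside 1223 TPM for Rpl27-ps3. The Cre controls of batch 2 showed how such a split can vary between libraries. Rps3a1 had 1427, 139 and 2142 TPM in Cre controls 4, 5 and 6, while Rps3a2 had 664, 1219 and 315 TPM there and at most 3.53 TPM in the other 18 libraries. Rps3a1 in those 18 libraries had 1164 to 2554 TPM.

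The groups were checked before their comparison. MPP libraries had 1095 to 1969 TPM summed over 6 MPP markers, against 30.9 to 136 TPM in LT-HSC libraries, and 237 to 339 TPM over 10 LT-HSC markers, against 367 to 921 TPM in LT-HSC, without overlap. In LT-HSC of batch 1, B cell markers summed to 366 to 893 TPM in knockouts and 10.7 to 217 TPM in floxed controls, and neutrophil markers to 128 to 1306 TPM in knockouts and 35.2 to 60.5 TPM in floxed controls. In MPP, B cell markers reached 744 to 6029 TPM in knockouts and 2158 to 11708 TPM in floxed controls. Their part in the results below was not tested. An Rxra junction skips a cassette exon, and whether this is the floxed exon was not established. Its PSI was 0.938 in the 1 LT-HSC knockout library of batch 1 that had a value. In MPP knockouts 1 and 3 it was 1 and 0.5. It was 0.647, 0 and 1 in the Myc allele group, 0, 0.0127 and 0 in the libraries labelled knockout in batch 2, and 0 to 0.1 in all controls. In this junction the libraries labelled knockout in batch 2 were not told from controls. One unnamed gene identifier, ENSMUSG00000089855, took 10.6% to 51.8% of each library's TPM. Its share was highest in LT-HSC floxed control 2, which left less of the TPM scale to all other genes together.

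Together the 84 genes took between a low of 6.95% and a high of 18% of the full TPM scale. MPP knockouts averaged 13.1 ± 1.08% and MPP floxed controls 13.0 ± 1.11% (SD, n = 3 each). LT-HSC of batch 1 averaged 13.5 ± 1.53% in knockouts and 11.4 ± 3.99% in floxed controls, whose low value of 6.95% was floxed control 2. In batch 2 the Myc allele group averaged 15.1 ± 2.17%, the libraries labelled knockout 14.9 ± 0.701% and the Cre controls 17.7 ± 0.228%. Without ENSMUSG00000089855 the means were 20.7%, 20.4%, 20.5% and 20.8% in batch 1 in the same order, and 24.5%, 25.1% and 26.9% in batch 2. LT-HSC floxed control 2 was the lowest library on this scale as well, at 17.4%. The 4 groups of batch 1 overlapped on both scales. The Cre controls lay above all 3 libraries labelled knockout on both scales, above all 3 of the Myc allele group on the first scale, and overlapped with that group on the second. This was not tested. The large subunit took 53.2% to 55.5% of the summed level in every library. In bulk samples fewer cells of a type and less RNA per cell cannot be told apart.

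**Figure D1:**
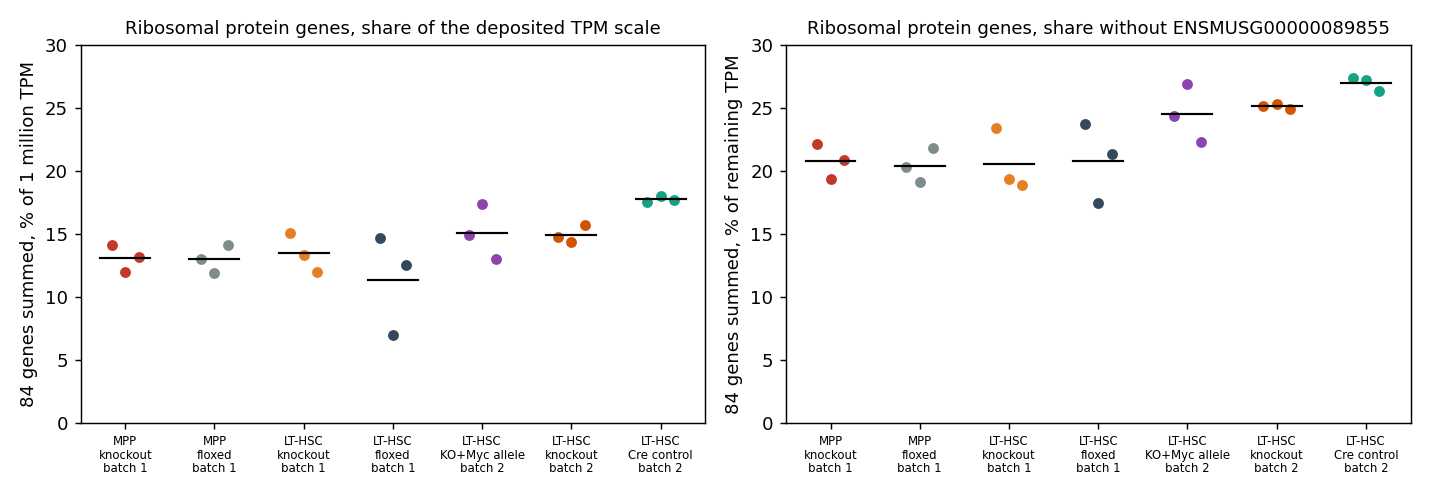
Summed TPM of the 84 ribosomal protein genes in each library, as a percent of the full TPM scale (left) and of the TPM left without ENSMUSG00000089855 (right). Points are libraries and lines are group means of 3. LT-HSC floxed control 2 is lowest on both sides, at 6.95% on the left and 17.4% on the right. Batch 2 lies higher than batch 1 on the right in most libraries.

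Each gene was also set against the family in its library. Against the geometric mean of the 80 genes above 0 in every library, the coefficient of variation over 21 libraries had a median of 15.8% among the 74 genes that averaged at least 100 TPM, beside 22.5% for the deposited TPM. It was under 20% for 49 of them. Division by the family's own mean removes the scale that the genes of a library share, which by itself lowers the spread. No other gene set is given for comparison. Rps20, which sits at the head of the small subunit, was the steadiest at 5.68%, followed by Rpl19 at 6.29% and Rps16 at 7.60%. Rps27a, which is made as a fusion with ubiquitin, varied most at 47.0%, followed by Rps2 at 34.0% and Rps15 at 31.6%. These genes were named after their values were seen.

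No ribosomal protein gene passed the threshold between RXR knockout and floxed LT-HSC of batch 1. Tests were limma fits on log2(TPM + 1), with rises and falls called at an adjusted p under 0.05 (Benjamini-Hochberg over all genes tested). Of 78 ribosomal protein genes tested, 0 passed, against 45.2% of 14839 genes, and 1 had an unadjusted p under 0.05. Among all genes 6614 rose and 86 fell on deposited TPM, but 327 rose and 367 fell (4.68% of genes) after rescaling each library by the median of gene ratios. On that scale 0 ribosomal protein genes passed as well, and 15 had an unadjusted p under 0.05. The median log2 difference of the 78 genes was 0.32, with 78 above 0, beside 0.52 for all genes. After rescaling it was -0.34, with 2 above 0, beside -0.03. On both scales the family's median lay below that of all genes. Its sign follows from the scale chosen and is not a result.

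Rpl10, a large subunit protein at the catalytic core, had the largest difference on deposited TPM, and was named after its values were seen. It stood at 1574, 1347 and 1408 TPM in LT-HSC knockouts and at 1442, 405 and 1227 TPM in LT-HSC floxed controls. The groups overlapped, and floxed control 2 alone was low (log2 difference 0.69 ± 0.35 SE, adjusted p = 0.114). Rps4l, a paralog of Rps4x, had 9.44, 6.12 and 5.47 TPM in knockouts and 5.19, 2.54 and 5.15 TPM in floxed controls, a difference of 0.61 ± 0.25 SE (adjusted p = 0.0577). Every knockout value of Rps4l lay above every floxed value, at levels of a few TPM. Rplp0 and Rplp1, which form the stalk that recruits elongation factors, had the smallest differences on deposited TPM, 0.03 and 0.02, and the lowest differences after rescaling, -0.63 and -0.64 (adjusted p = 0.0974 and 0.128). Leaving out floxed control 1, which left floxed control 2 as 1 of 2 controls, 15 of 78 genes rose, among them Rps14, Rps6 and Rpl10, against 55.7% of all genes in that fit, and the median was 0.54. Without floxed control 2 itself, 0 passed and the median was -0.02. Without floxed control 3, Rps4l and Rpl7l1 rose, against 43.1% of all genes.

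In MPP no ribosomal protein gene passed either. Of the 78 genes 0 passed on deposited TPM (background 0.323%) and 0 after rescaling (background 0.526%), and none had an unadjusted p under 0.05 on either scale. The median difference was 0.02, beside 0.08 for all genes. Rps6, the small subunit protein phosphorylated downstream of mTOR, had 1255, 1072 and 1144 TPM in MPP knockouts, against 1144, 1015 and 1316 TPM in MPP floxed controls. The values of the groups interleaved. The knockout effect in MPP minus that in LT-HSC was tested directly, and 0 genes passed on deposited TPM (background 0.0809%) or rescaled (background 0.027%), with none at an unadjusted p under 0.05 on either scale. The median of that difference was -0.31, beside -0.45 for all genes. After rescaling it was 0.28, with 76 of 78 genes above 0, beside 0.04, so its sign turned with the scale.

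Other genes of ribosome production were counted on both scales, beside the 45.2% and 4.68% of all genes called there. Of 42 assembly genes listed, 40 were tested, and in LT-HSC knockouts of batch 1 against floxed controls 5 rose and none fell on deposited TPM, while 6 fell and none rose after rescaling. Those 6 included Npm3, a nucleolar chaperone, at -0.94 (adjusted p = 0.0297) and Ddx21, an RNA helicase, at -0.70 (adjusted p = 0.0479). Of 16 other 5′ TOP mRNAs 1 rose on deposited TPM, Vim, and 1 fell after rescaling, Eef2, the elongation factor, at -0.82 (adjusted p = 0.0401). Among 15 mTOR and TOP regulators 5 rose on deposited TPM, led by Deptor, an mTOR inhibitor, at 0.80 (adjusted p = 0.00962), and 1 fell after rescaling. Among 11 chaperones and importers of ribosomal proteins 1 rose, Tnpo1, on deposited TPM only. The 74 proteins of the mitochondrial ribosome gave 10 that rose on deposited TPM and 1 after rescaling. On deposited TPM each of these lists was called less than the 45.2% of all genes. After rescaling the share called was above 4.68% for the assembly genes, at 6 of 40. It was also above 4.68% for the 5′ TOP mRNAs and the mTOR and TOP regulators, by 1 gene in each list. For the chaperones and importers and for the mitochondrial ribosome it was below 4.68%. In MPP knockouts none of these lists held a gene that passed on either scale. The 21 Diamond-Blackfan genes tested spanned 0.08 for Rps26 to 0.52 for Rpl9 in LT-HSC, and -0.06 for Rps29 to 0.11 for Rpl11 in MPP.

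The libraries labelled knockout in batch 2 also showed no ribosomal protein gene past the threshold. Against Cre controls 0 of 78 genes passed on deposited TPM (background 0.0744%) or rescaled (background 0.0595%). An unadjusted p under 0.05 was reached by 16 and by 4 genes. The median difference was -0.22, beside -0.25 for all genes. Rplp0 had 925, 912 and 1061 TPM in libraries labelled knockout and 251, 677 and 674 TPM in Cre controls. The groups did not overlap, and Cre control 4 was lowest (log2 difference 0.99 ± 0.34 SE, adjusted p = 0.705). Rps4x, the X-linked small subunit protein, had 3699, 3282 and 4954 TPM in libraries labelled knockout and 6223, 6060 and 5319 TPM in Cre controls, again without overlap (-0.58 ± 0.25 SE, adjusted p = 0.705). Both were named after their values were seen.

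No ribosomal protein gene passed for the Myc allele. Against libraries labelled knockout without that allele, 0 of 78 genes passed on either scale, as did 0% of 13445 genes on deposited TPM and 0% after rescaling, and none of the 78 had an unadjusted p under 0.05. The median difference was -0.01, beside 0.04 for all genes. Against Cre controls 0 passed on deposited TPM (background 0.104%) and rescaled (background 0.0818%), with 11 and 8 at an unadjusted p under 0.05 and a median of -0.20, beside -0.21. Without Myc allele replicate 1, 8 of 78 genes fell, against 7.32% of all genes in either direction in that fit, led by Rps2 at -0.93 (adjusted p = 0.0338) and Rps4x at -0.90 (adjusted p = 0.0346). Rps2 had 2420, 1679 and 1280 TPM in the Myc allele group and 2867, 2854 and 2683 TPM in Cre controls, and replicate 1 was the highest of its group.

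Both batches of LT-HSC together, with batch as a term, gave 0 of 78 genes for libraries labelled knockout against controls on deposited TPM (background 0.421%) and rescaled (background 0%), with 0 and 7 at an unadjusted p under 0.05. This pools the batch 2 libraries whose Rxra junction was at the level of controls. The difference from controls of libraries labelled knockout in batch 1 minus that in batch 2 gave 0 on deposited TPM (background 1.27%) and rescaled (background 0.124%), with 10 at an unadjusted p under 0.05 on each. Its median was 0.58, beside 0.73 for all genes, and -0.27 after rescaling, beside 0.02. Leaving out 1 library moved the number from 0 to at most 5, reached without floxed control 1 (16.3% of all genes), and 4 were reached without the library labelled knockout 6 (38.5% of all genes).

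**Figure D2:**
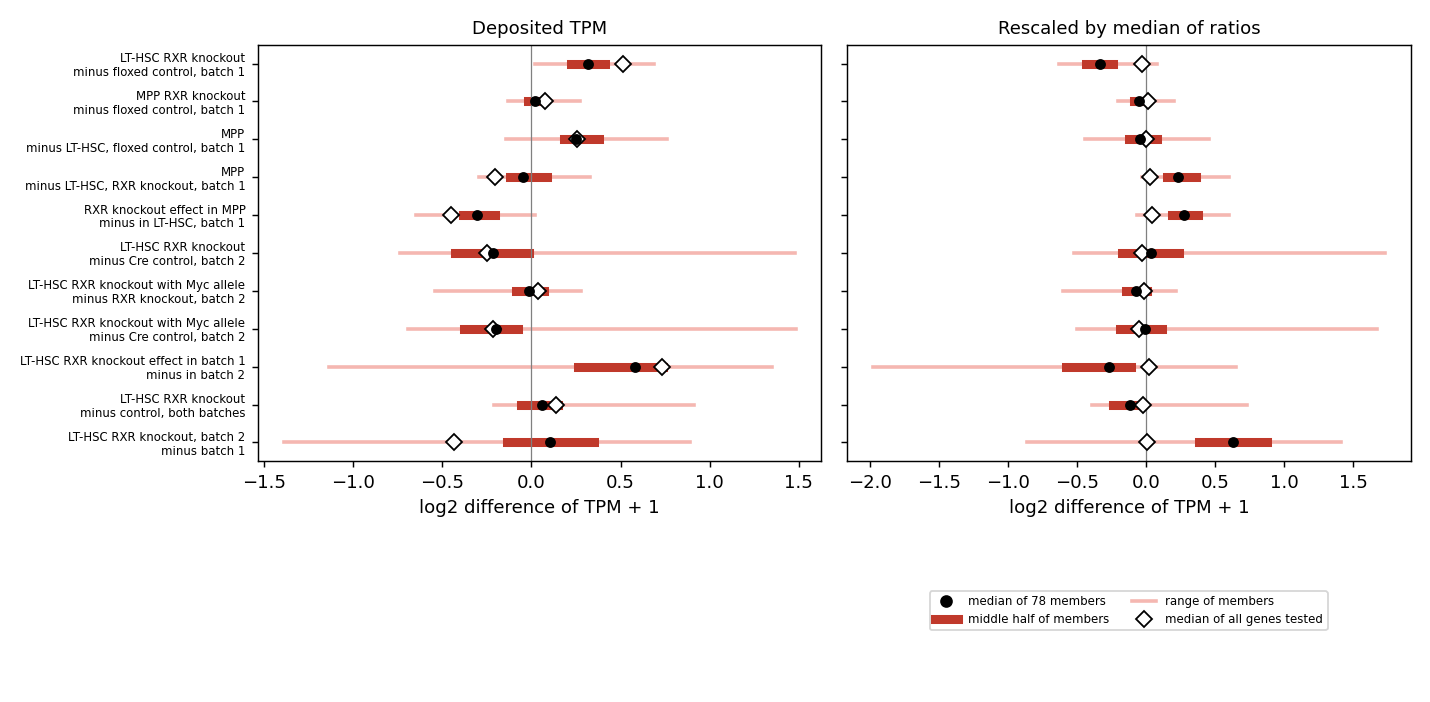
Log2 differences of the ribosomal protein genes in 11 comparisons, on deposited TPM (left) and rescaled TPM (right). Black points are medians of 78 genes, thick bars the range between their quartiles, thin bars their range and diamonds the median of all genes tested; in LT-HSC knockouts of batch 1 the median of the family is 0.32 on the left and -0.34 on the right, below the diamond on both.

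Between MPP and LT-HSC of batch 1, no ribosomal protein gene passed on deposited or rescaled TPM. Of 78 genes 0 passed in floxed controls on deposited TPM (background 21.2%) and rescaled (background 23.9%), and 0 passed in knockouts on deposited TPM (background 19.5%) and rescaled (background 22.9%). An unadjusted p under 0.05 was reached by 3 and 0 genes in floxed controls and by 0 and 7 in knockouts. The median difference was 0.25 in floxed controls, beside 0.26 for all genes, and -0.05 in knockouts, beside -0.20. After rescaling it was -0.04 in floxed controls, with 31 of 78 genes above 0, beside 0.002 for all genes. In knockouts it was then 0.23, with 75 above 0, beside 0.03. In both genotypes the sign turned with the scale. Assembly genes did pass in knockouts after rescaling, where 21 of 40 rose in MPP, led by Nop56, a core protein of box C/D particles, at 1.05 (adjusted p = 0.00145) and Lyar at 0.93 (adjusted p = 0.00999). On deposited TPM 1 of 40 rose, Nop56. In floxed controls 2 rose on deposited TPM, Dkc1 and Nop16, and 1 fell after rescaling, Ubtf. Whether knockouts and floxed controls differ in this was tested by the interaction, where 0 of 40 passed on both scales. The B cell marker sums given above overlapped between MPP and LT-HSC in knockouts and not in floxed controls, and their part was not tested.

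Relative to the family, some ribosomal protein genes did differ between the cell types of batch 1. Here each library was scaled on the ribosomal protein genes themselves, so that a difference is one against the rest of the family. In floxed controls 7 of 78 passed, against 13.3% of all genes on that scale, with 2 higher and 5 lower in MPP. In knockouts 3 of 78 passed, against 16% of all genes, with 1 higher and 2 lower in MPP. Both shares were below those of all genes.

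Rps21, a small subunit protein (chromosome 2, 180257379 to 180258444), was lower in MPP than in LT-HSC of batch 1 in both genotypes. Its TPM over the family's geometric mean was 1.1, 1.08 and 1.06 in knockout MPP and 1.31, 1.28 and 1.28 in knockout LT-HSC. In floxed controls it was 1.04, 1.06 and 1.1 in MPP and 1.41, 1.53 and 1.3 in LT-HSC. All 6 MPP libraries lay below all 6 LT-HSC libraries of batch 1. The difference was -0.29 in knockouts (adjusted p = 0.038) and -0.44 in floxed controls (adjusted p = 0.00386). This did not extend to LT-HSC of batch 2, where the ratio ran from 0.684 to 1.52. The Cre controls there had 0.739, 0.821 and 0.888, below every MPP library. Rps21 passed in each of 6 fits that left out 1 library in floxed controls, and in 0 of 6 in knockouts.

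Rplp0, the base of the stalk, had ratios of 0.772, 0.775 and 0.875 in floxed MPP and 1.04, 1.08 and 1.08 in floxed LT-HSC, a fall of 0.45 (adjusted p = 0.0103) without overlap, called in 4 of 6 fits that left out 1 library. Its knockout ratios of 0.85, 0.801 and 0.829 in MPP and 0.85, 0.987 and 0.795 in LT-HSC overlapped. LT-HSC of batch 2 had Rplp0 ratios of 0.232 to 1.14, with 0.232, 0.615 and 0.575 in Cre controls, below every MPP library. Its partner Rplp1 had 3.65, 3.72 and 3.15 in floxed MPP and 4.19, 4.59 and 4.32 in floxed LT-HSC (-0.36, adjusted p = 0.0152). Again the floxed groups did not overlap, and the call was made in 5 of those 6 fits. LT-HSC of batch 2 had Rplp1 ratios of 1.57 to 3.76. Rpl38, which in the mouse is needed for translation of Hox mRNAs, fell by 0.27 (adjusted p = 0.0381), a call lost with the source number in the labels as a block and made in 2 of those 6 fits. Rpl21 fell by 0.29 (adjusted p = 0.0401), a call lost with its copies summed and made in 1 of those 6 fits.

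Against the family, Rps6 and Rpl10a passed as higher in floxed MPP as counted without their copies, which hold 43.1% and 51.8% of the summed level of gene and copies. With copies summed neither passed in floxed controls, and Rpl10a did not pass in knockouts. Rps6 had ratios of 1.25, 1.2 and 1.32 in floxed MPP and 1.05, 0.965 and 0.98 in floxed LT-HSC, a rise of 0.29 (adjusted p = 0.0362). Rpl10a, which lies near the exit site of the large subunit, had 1.69, 1.80 and 1.56 in floxed MPP and 1.40, 1.19 and 1.36 in floxed LT-HSC, a rise of 0.32 (adjusted p = 0.0479). For both the floxed groups were apart. In knockouts Rpl10a had 1.78, 1.91 and 1.73 in MPP and 1.45, 1.3 and 1.51 in LT-HSC (0.31, adjusted p = 0.0436), while Rpl23 had 1.38, 1.47 and 1.37 in MPP and 1.64, 1.61 and 1.73 in LT-HSC (-0.27, adjusted p = 0.0361). With the block, Rpl10a passed in neither genotype and Rpl4 passed in knockouts at 0.28 (adjusted p = 0.0418). The number of genes that passed in knockouts was 0 or 1 when any 1 library was left out. In floxed controls it was 2 to 10.

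**Figure D3:**
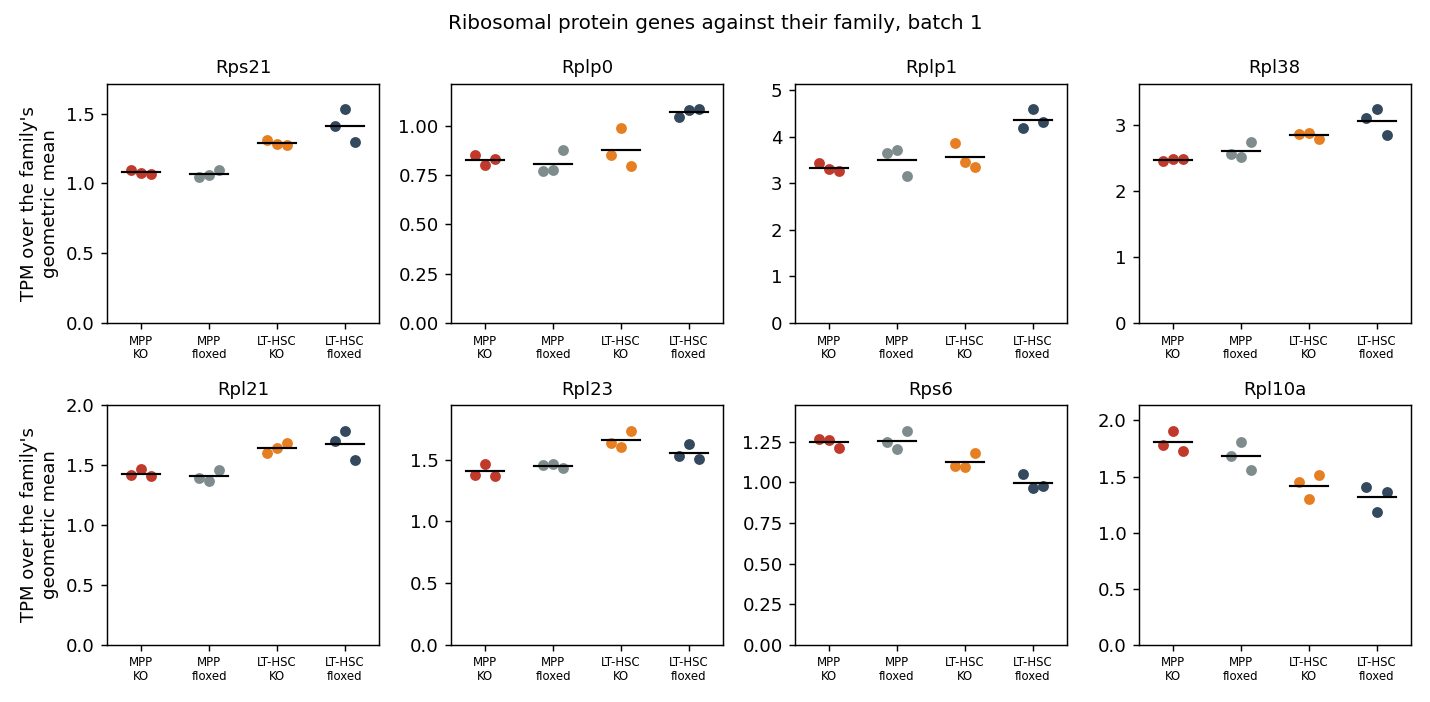
TPM of 8 ribosomal protein genes over the family's geometric mean in each library of batch 1, MPP left of LT-HSC and knockout left of floxed control. Points are libraries and lines are means of 3; Rps21 lies at 1.04 to 1.1 in MPP and at 1.28 to 1.53 in LT-HSC.

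The ratios of these genes to each other also split by batch. This was examined by setting the LT-HSC libraries labelled knockout in batch 2 against the LT-HSC knockouts of batch 1, a comparison added after seeing the data. Of 78 genes 3 passed on deposited TPM, 1 higher and 2 lower, against 26% of 14492 genes. After rescaling 37 passed, 36 higher and 1 lower, against 20.2%. The median was 0.10, beside -0.43 for all genes, and 0.63 after rescaling, beside 0.01. Scaled on the family, 13 of the 78 genes were higher and 7 lower. Among all 14492 genes 144 were higher and 3808 lower on that scale. B cell markers summed to 10.1 to 76.2 TPM in batch 2 and 366 to 893 TPM in batch 1, and neutrophil markers to 9.09 to 13.1 TPM and 128 to 1306 TPM in the same order. Batch, mice and sort cannot be told apart here, and the libraries labelled knockout in batch 2 had an Rxra skipping PSI of 0 to 0.0127.

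Rps27a (chromosome 11, 29545842 to 29548040) had 793, 732 and 549 TPM in the batch 2 libraries labelled knockout and 2019, 1818 and 1570 TPM in batch 1 knockouts, a fall of 1.39 (adjusted p = 0.00313). Over all groups its ratio to the family was 0.435 to 0.902 in the 9 libraries of batch 2 and 1.78 to 2.06 in the 12 of batch 1, with a wide gap between. Rpl6, a large subunit protein, had 619, 598 and 781 TPM in batch 2 and 1305, 1213 and 1050 TPM in batch 1, and fell by 0.84 (adjusted p = 0.0217). Rps2, which lines the mRNA entry of the small subunit, had 1859, 1748 and 2480 TPM in batch 2 and 1163, 1174 and 929 TPM in batch 1, a rise of 0.89 (adjusted p = 0.0422). None of these 3 genes overlapped between the batch 2 libraries labelled knockout and the batch 1 knockouts. Leaving out any 1 library left 1 or 2 genes past the threshold, against 10.5% to 35.3% of all genes.

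Of the 74 genes that averaged at least 100 TPM, 13 had ratios to the family that did not overlap between the 9 libraries of batch 2 and the 12 of batch 1, 10 higher and 3 lower in batch 2. That is 17.6% of them, beside 6.68% of all 584 genes with that mean on the same ratio, the 74 included. Division by the family's own mean acts differently on its members than on other genes, so these shares are not like for like. Besides Rps27a and Rpl6, Rps25 was lower, at 0.955 to 1.70 in batch 2 and 1.87 to 2.39 in batch 1. Rps15 was higher, at 3.08 to 4.37 in batch 2 and 1.93 to 2.39 in batch 1, as was Rpl36a, at 2.28 to 2.96 and 1.62 to 1.78 in the same order. The ratios also spread more in batch 2, with a median SD on the log2 scale of 0.205 over its 9 libraries and 0.106 over the 12 of batch 1.

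**Figure D4:**
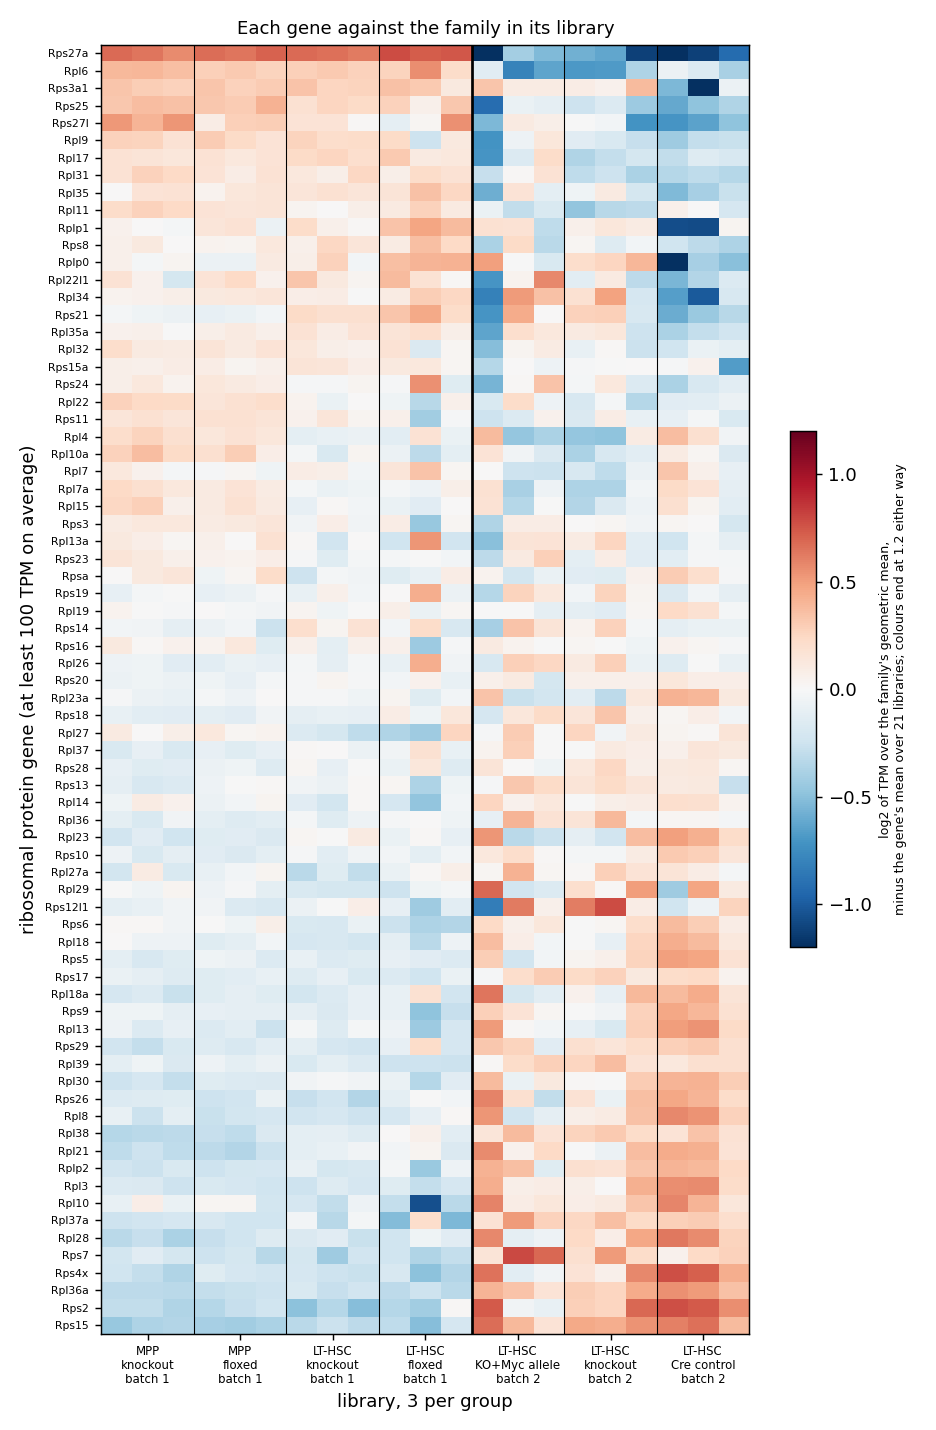
Each of 74 ribosomal protein genes against the family in every library, as log2 of its ratio to the family's geometric mean minus the gene's own mean over 21 libraries; genes are ordered by batch 2 minus batch 1. Columns are libraries, 3 a group, and the thick line parts batch 1 (left) from batch 2 (right); Rps27a and Rpl6 at the top are lower in batch 2, and Rps15 and Rps2 at the bottom higher.

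Splicing was read from deposited PSI values, and 37 of 46443 events lay in 15 ribosomal protein genes. Events were called at an adjusted p under 0.05 and a PSI difference of at least 0.1, with 30 events of 14 genes tested in batch 1 and 28 of 14 genes in batch 2. None was called in any of 8 comparisons. In LT-HSC knockouts of batch 1 against floxed controls 0 of 30 were called (background 0.166%), with 6 at an unadjusted p under 0.05, and in MPP 0 of 30 (background 0.199%), with 5. For MPP against LT-HSC 0 of 30 were called in floxed controls (background 0.486%), with 3, and in knockouts (background 0.305%), with 4. The difference between the knockout effects gave 0 of 30 (background 0.0755%), with 4. In batch 2, libraries labelled knockout against Cre controls gave 0 of 28 (background 0.0389%), with 0 at an unadjusted p under 0.05. The Myc allele group gave 0 of 28 against the libraries labelled knockout (background 0.0141%), with 1, and 0 of 28 against Cre controls (background 0.0318%), with 4.

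Rps24, a small subunit protein and a Diamond-Blackfan gene, had the lowest adjusted p between cell types. In humans its transcripts differ by short exons near the end of the coding sequence. Here the junction ends enclose segments of 18 bases (chromosome 14, 24494052 to 24494069, mm10) and 20 bases (24495430 to 24495449). The junction into the 18-base segment, against skipping both, had a PSI of 0.0914, 0.122 and 0.0781 in knockout MPP and 0.429, 0.379 and 0.406 in knockout LT-HSC. The groups were far apart, but the difference of -0.31 had an adjusted p of 0.0668. In floxed controls it was 0.16, 0.141 and 0.111 in MPP and 0.471, 0.442 and 0.233 in LT-HSC (-0.24, adjusted p = 0.113). The junction into the 20-base segment, against skipping both, had the lowest adjusted p in floxed controls. Its PSI was 0.46, 0.402 and 0.347 in floxed MPP and 0.277, 0.267 and 0.192 in floxed LT-HSC (0.16, adjusted p = 0.111), while in knockouts it was 0.3, 0.334 and 0.271 in MPP and 0.345, 0.349 and 0.342 in LT-HSC (-0.04, adjusted p = 0.851). The groups were apart in both genotypes, in opposite directions, and the test of that difference gave an adjusted p of 0.32. For the 18-base segment LT-HSC floxed control 3 was the nearest to MPP, and without it 2 events of ribosomal protein genes were called, both lower in MPP. In batch 2 LT-HSC the PSI into the 18-base segment was 0.027 to 0.0871, below every LT-HSC library of batch 1.

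Rpl22l1 and Rpl10 showed retained introns in certain libraries. The Rpl22l1 intron end (chromosome 3, 28806736 to 28806737) had a PSI of 0.21 and 0.143 in MPP knockouts 2 and 3, 0.231 and 0.235 in LT-HSC knockouts 2 and 3 of batch 1, and 0 in the other 17 libraries. Knockout library 1 of both cell types was among those at 0. An Rpl10 intron end (chromosome X, 74271360 to 74271361) had 0.106, 0.129 and 0.126 in MPP knockouts and 0 in all 3 MPP floxed controls (0.12, adjusted p = 0.164). In LT-HSC of batch 1 it had 0.074, 0.124 and 0.109 in knockouts and 0.0795, 0 and 0 in floxed controls. In batch 2 it had 0.38, 0.387 and 0.653 in the Myc allele group, 0, 0 and 0.524 in libraries labelled knockout and 0 in Cre controls.

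In the added comparison of LT-HSC libraries labelled knockout in batch 2 with LT-HSC knockouts of batch 1, 15 of 28 events were called, 3 higher and 12 lower, against 10.3% of 33944 events, and 13 to 15 when 1 library was left out. Rpl38 used the first of a pair of 5′ splice sites (junction from chromosome 11, 114668609 to 114668781) at a PSI of 0.0712, 0.107 and 0.0534 in batch 2 and 0.788, 0.838 and 0.803 in batch 1 (-0.73, adjusted p = 2.61e-08). All 9 batch 2 libraries had 0.0524 to 0.107 and all 12 of batch 1 had 0.788 to 0.84. The Rps24 junction that skips both short segments, against that from the 20-base segment to the next exon, had 0.792, 0.833 and 0.595 in batch 2 and 0.0802, 0.12 and 0.103 in batch 1 (0.64, adjusted p = 0.00103). Rpl35a, a large subunit protein and a Diamond-Blackfan gene, used 1 of a pair of first-exon junctions (chromosome 16, 33056510 to 33057136) at a PSI of 0.556, 0.38 and 0.508 in batch 2 and 0.928, 0.915 and 0.922 in batch 1 (-0.44, adjusted p = 0.000395). No value of these 3 events was shared by the batches.

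**Figure D5:**
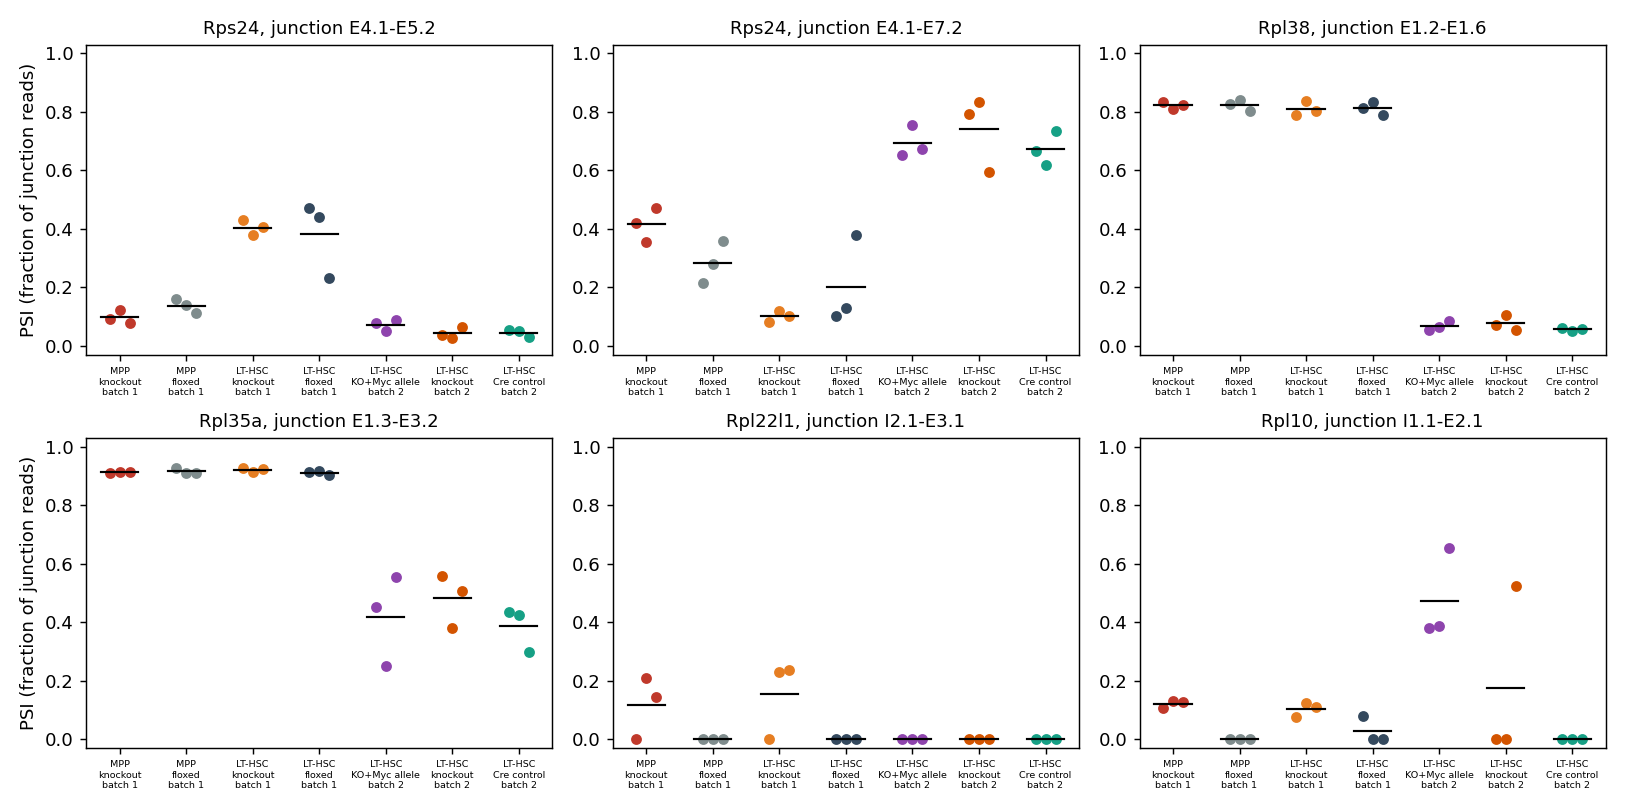
PSI, the fraction of reads on a junction against its competitors, for 6 junctions of ribosomal protein genes in each library. Points are libraries and lines are group means; Rpl38 lies at 0.0524 to 0.107 in batch 2 and 0.788 to 0.84 in batch 1, and the retained intron of Rpl22l1 is above 0 in 4 knockout libraries of batch 1.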

How the data were processed

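RNA of sorted LT-HSC and MPP from pooled mice was amplified and sequenced in paired ends in 2 batches, per the labels' protocols. TPM per Ensembl gene and PSI per junction, a fraction, were deposited by the authors. The submitters' processing notes name kallisto, STAR 2.6 and mm10, without roles. TPM keep no depth, so the depth behind each value is unknown, and no interval is given. Members and lists were chosen with earlier results of these data known. Of 28987 identifiers, 27458 (94.7%) had a symbol.

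Genes reaching 1 TPM in 3 or more libraries were fitted on log2(TPM + 1) with limma 3.58.1 (R 4.3.3, empirical Bayes with trend), each batch alone, and LT-HSC of both batches with batch as a term. Benjamini-Hochberg adjustment ran over all genes tested. Rescaling divided each library by its median ratio to the geometric mean over libraries. PSI were fitted with limma without transformation or trend, on events with a value in every library of the fit. Figures used Python 3.11.15, numpy 2.4.6 and matplotlib 3.10.9. The fits were checked on simulated data. P-values measure the spread between pooled samples, and reads shared with processed copies make single genes uncertain.

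Source numbers in the labels pair MPP with LT-HSC in knockouts, where deviations from group means correlated at 0.566, 0.163 and 0.297. Genes named were up to 5 called genes a direction and comparison, the 3 highest and 3 lowest genes, listed disease and role genes, and those said to be chosen after their values were seen. Alternatives were rescaling, leaving out ENSMUSG00000089855, scaling on the members, no filter on low values, summing members with copies, a replicate block and leaving out each library.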

Additional observations from a re-analysis of the deposited data

How the results depend on the processing

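The alternatives comprised 185 for genes and 84 for events, of which 154 and 82 kept the count of called genes or events within 1.5 times. For LT-HSC knockouts against floxed controls of batch 1, summing each gene with its copies gave 1 gene (Rps27), and leaving out 1 library gave 0 to 15. Rps27 itself was listed at 0 in every library. Each Rps27 call with copies summed therefore rests on its 1 processed copy, which averaged 11.5 TPM, and says nothing about the gene. For MPP against LT-HSC in floxed controls, 1 gene passed without ENSMUSG00000089855 (Rps21), 1 without the low-value filter (Rpl3l), 1 with copies summed (Rps27), 7 when scaled on the family, and 0 to 3 with 1 library left out. In knockouts 1 passed without the filter (Rpl3l) and 3 when scaled on the family. On the family's own scale, chosen with its leave-outs after seeing the data, leaving out 1 library gave 2 to 10 in floxed controls and 0 to 1 in knockouts. The Myc allele group against Cre controls gave 0 to 8, and the difference between batches of labelled knockouts from controls 0 to 5. Libraries labelled knockout in batch 2 were also set against batch 1 knockouts, a comparison added after seeing the data. This gave 37 genes rescaled, 18 without ENSMUSG00000089855, 20 scaled on the family and 1 to 2 with 1 library left out. Scaled on the family, 144 of all 14492 genes were higher and 3808 lower. The share of all genes beside the 18 is not given. Events between MPP and LT-HSC gave 0 to 2 in floxed controls with 1 library left out, and 1 in knockouts when 2 values a group sufficed. The cause of these shifts was not tested. Rescaling moved the split of all genes between MPP and LT-HSC to 1664 higher and 1882 lower in floxed controls (2305 and 834 deposited) and to 1724 and 1680 in knockouts (592 and 2297 deposited), and between batches to 1468 and 1454 (90 and 3676 deposited).

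The replicate block left 0 ribosomal protein genes called in the planned comparisons, and on the family's scale gave 5 in floxed controls, where Rpl38 and Rpl10a were lost, and 3 in knockouts. Floxed source numbers correlated at 0.0874, 0.0673 and 0.104, so not every pair was over 0.1. Replicate numbers in the titles, shared by knockouts and controls, correlated at -0.16 to 0.297 and name samples only. For the Myc allele group no block could be fitted, because it and its comparators share fewer than 2 replicate numbers. Depth is unknown in TPM.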
